A study of Mus musculus and synthetic construct with 15 samples.

Results

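The loci of Adrb1 and Grk5 on mouse chromosome 19 were represented by 9 of the 3820 candidate regions of a reporter assay in heart: 7 regions were assigned to Adrb1 and 2 to Grk5. Membership was set by position: of all protein-coding gene bodies that RefSeq places on GRCm38 (also called mm10), the one closest to the midpoint of the region, and no more than 100 kb away, had to be Adrb1 (chr19:56722117-56725150, plus strand) or Grk5 (chr19:60889560-61095968, plus strand). The nearest gene is an address and not a shown target. The pair of genes was itself chosen by measured values, namely the atrial over ventricular RNA of 1 Grk5 region, so differences between chambers at the members are given here as descriptions, without p-values. There were 3 groups of 5 libraries each. Atrial RNA and ventricular RNA came from hearts of wild-type mice that received the pool of regions as an AAV9 library (an adeno-associated virus) on postnatal day 0 and were collected on postnatal day 7, and AAV DNA came from the virus pool itself. The labels give cardiomyocytes as the cell type of the RNA libraries. Counts cover reporter regions only, so that label could not be set against marker genes. Nothing in the labels says that replicates came from separate animals, so p-values measure the spread between these libraries, which may be technical.

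Adrb1 encodes the main beta-adrenergic receptor of heart muscle. When noradrenaline or adrenaline binds it, the stimulatory G protein activates adenylyl cyclase, and cAMP-dependent protein kinase then raises the rate and force of contraction. Grk5 encodes a G-protein-coupled receptor kinase of the heart that phosphorylates activated receptors, after which arrestins bind and the receptor is desensitized. In the assay, RNA made from each 400 bp region is set against the DNA of that region in the virus, and the ratio is read as activity in the chamber. It reports on the cloned fragment and not on the expression of Adrb1 or Grk5.

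Regions are called here by the distance of their midpoint from the start of the gene. Upstream of Adrb1 lay the regions at -53.1 kb (chr19:56668858-56669257), -42.1 kb (chr19:56679821-56680220), -32.9 kb (chr19:56689017-56689416) and -18.3 kb (chr19:56703599-56703998). Downstream lay those at +14.4 kb (chr19:56736294-56736693), +20.1 kb (chr19:56742005-56742404) and +24.8 kb (chr19:56746693-56747092). The Grk5 regions lay inside the gene at +50.4 kb (chr19:60939780-60940179) and +50.8 kb (chr19:60940180-60940579) and abut each other with no base between them. Exons and introns were not told apart. No member reached the Adrb1 or Grk5 start. All 7 Adrb1 regions carry the tag GeneAVB, the +14.4 kb region also the tag vMTF+p300, and both Grk5 regions carry vMTF+p300 alone.

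RefSeq promoter windows cover part of 3 of the Adrb1 regions, since the starts of 3 annotated long noncoding RNAs fall inside them. They are shown because the windows hold sequence for these members only, and not for their activity. The -53.1 kb region had the highest RNA over DNA in ventricle of the members tested, and the other 2 had more RNA than DNA in both chambers. The letters are RefSeq's, GRCm38.p6, plus strand. Capitals mark matches, on either strand, to 6 short motifs of factors known in heart. The motif of the GATA factors was searched as AGATAA and that of the TEAD factors as GGAATG. The half-site of nuclear receptors was searched as AGGTCA and the motif of T-box factors as AGGTGT. The motif of NKX2-5 was searched as TNAAGTG, and that of MEF2 is given by name only. The other 6 regions are not shown.
Adrb1 -53.1 kb, bases 1 to 259 (chr19:56668858-56669116): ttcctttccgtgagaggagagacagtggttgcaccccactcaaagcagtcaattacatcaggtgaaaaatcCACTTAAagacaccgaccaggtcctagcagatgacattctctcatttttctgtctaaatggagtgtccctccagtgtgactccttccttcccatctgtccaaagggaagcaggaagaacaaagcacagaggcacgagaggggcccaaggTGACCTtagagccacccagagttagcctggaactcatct
Adrb1 -18.3 kb, bases 1 to 228 (chr19:56703599-56703826): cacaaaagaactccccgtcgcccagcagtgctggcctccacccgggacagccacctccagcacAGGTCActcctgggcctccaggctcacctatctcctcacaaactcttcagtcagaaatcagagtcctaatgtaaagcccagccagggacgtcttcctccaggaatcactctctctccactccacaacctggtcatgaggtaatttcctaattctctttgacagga
Adrb1 +24.8 kb, bases 1 to 271 (chr19:56746693-56746963): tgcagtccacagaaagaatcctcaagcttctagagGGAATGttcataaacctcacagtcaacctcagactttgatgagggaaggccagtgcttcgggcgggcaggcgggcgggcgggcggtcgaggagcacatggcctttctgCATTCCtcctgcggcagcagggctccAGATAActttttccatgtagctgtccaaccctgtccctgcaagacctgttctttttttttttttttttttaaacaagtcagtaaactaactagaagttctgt

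The annotated RNA starts are base 210 of the -53.1 kb region (Gm32492), base 179 of the -18.3 kb region (a start of Gm32575) and base 222 of the +24.8 kb region (a start of Gm32718). The printed part of the -53.1 kb region held 1 nuclear receptor half-site and 1 NKX2-5 match. At the same positions of all 32851 promoter windows in the table, 14.1% and 9.9% held these motifs. The part of the -18.3 kb region held 1 half-site, against 12.5% of windows with one. The part of the +24.8 kb region held 2 TEAD matches and 1 GATA match, against 13.2% and 10% of windows. No T-box or MEF2 letters were found in these parts, which cover 57.0% to 67.8% of each region. A match is a run of letters and not a shown binding site.

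Totals ran from 877773 to 2369985 counts in atrial libraries, from 1271527 to 3781726 in ventricular libraries and from 2312820 to 2958271 in DNA libraries. Values below are CPM, counts scaled to a library size of 1000000, on 1 scale for all 15 libraries. The scale used trimmed-mean (TMM) factors over the 2601 regions whose DNA counts averaged 10 or more, called the DNA minimum below. Where a library had 0 counts, the limit of 3 counts stands for 0.829 to 3.12 CPM depending on the RNA library. Such limits and the intervals below cover only counting error. Replicate 1 of both RNA groups stood apart: of 256 regions below the DNA minimum that had at least 100 CPM in replicates 2 to 5 of both chambers, 233 were under 10 CPM in both replicate 1 libraries. Replicate 1 had 765 regions at 0 counts in atrium and 700 in ventricle, and the DNA libraries had 657 to 731. The other RNA libraries had 36 to 85. The main values are therefore also given for RNA replicates 2 to 5, which leaves out the RNA libraries most like the DNA in this count. Whether the DNA libraries match the pool that replicates 2 to 5 received was not tested. That limit holds for every RNA over DNA ratio below. For a whole chamber, fewer cells carrying virus and less RNA per cell cannot be told apart.

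**Figure D1:**
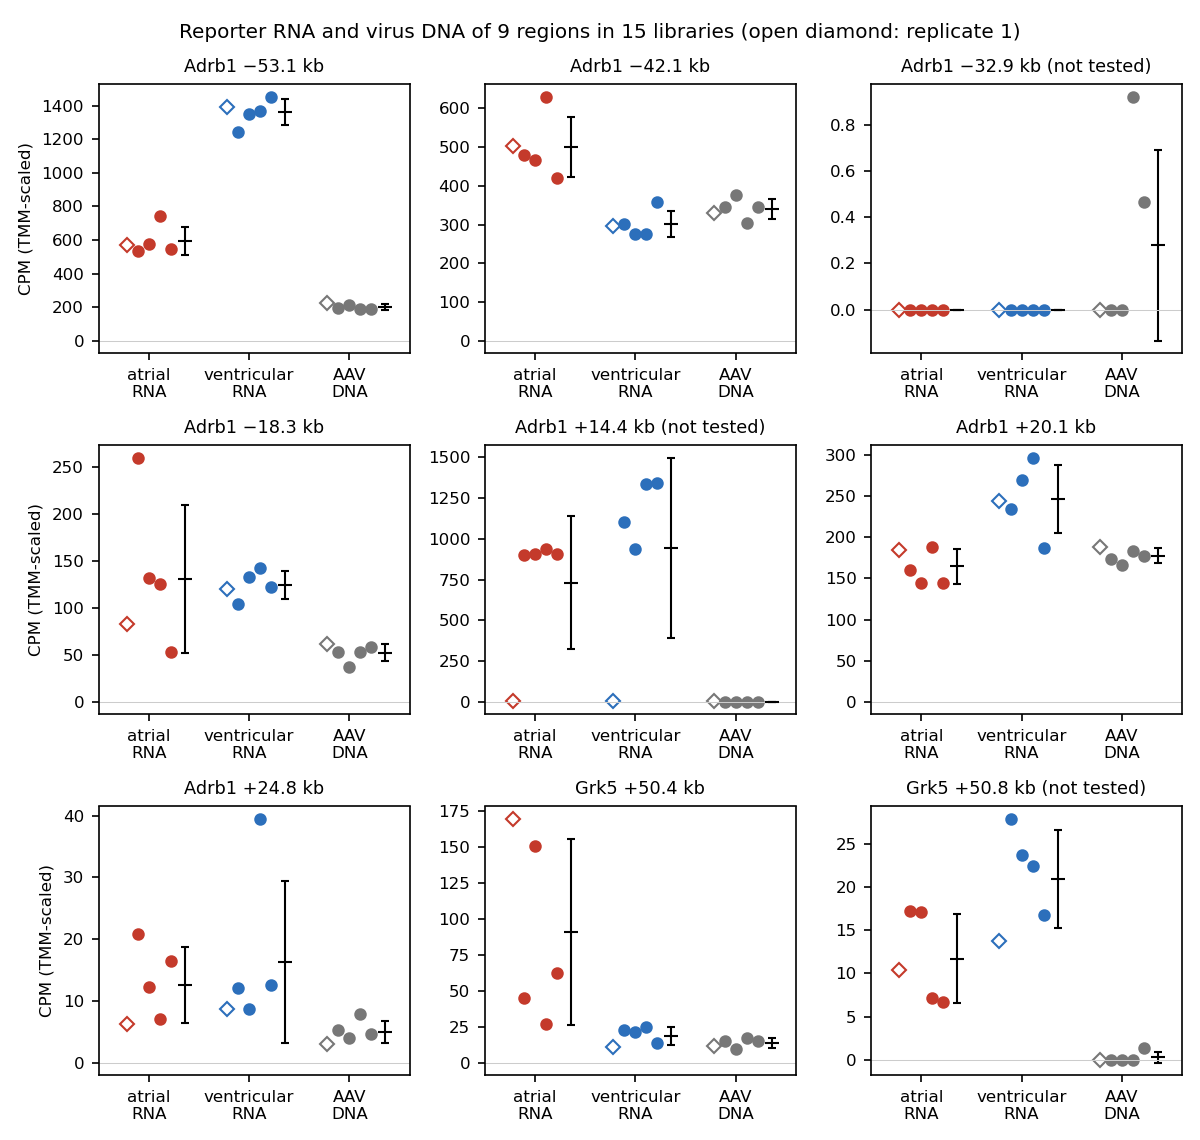
CPM of the 9 regions in each library, with 5 atrial RNA, 5 ventricular RNA and 5 AAV DNA libraries per panel. Points are libraries, open diamonds are replicate 1, and the bar beside each group is the mean ± SD. The Adrb1 region at -53.1 kb is highest in ventricle, the Grk5 region at +50.4 kb in atrium, and the Adrb1 region at +14.4 kb is near 0 in DNA and in both replicate 1 RNA libraries.

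Of the 9 regions, 6 met the DNA minimum and entered the tests. In atrium, 5 of these 6 had more RNA than DNA and 0 had less at an adjusted p under 0.05 (edgeR quasi-likelihood test, Benjamini-Hochberg over 2601 regions), where 38.4% of all regions were called higher and 36.3% lower. In ventricle 4 of 6 were higher and 0 lower, where 43.4% and 37.8% of all regions were. The median log2 RNA over DNA of the 6 was 1.22 in atrium and 0.86 in ventricle, against 0.04 and 0.13 over all regions. Atrial libraries lay entirely above the DNA libraries in 3 of the 6 and entirely below in 0, where 31.8% and 28.6% of all regions did. Ventricular libraries lay entirely above in 3 and entirely below in 0, where 36.1% and 33.8% did. These counts and medians describe the 6 regions that were abundant enough in the virus and are no test of the loci. The 5 called in atrium include the Grk5 region at +50.4 kb, whose atrial over ventricular RNA led to the choice of loci. Its part in these counts and medians is therefore not independent of that choice. With library totals as the scale, atrial RNA over DNA gave 1312 higher and 600 lower calls over all regions, against 999 and 945 with TMM factors. Ventricular RNA over DNA gave 1371 and 732, against 1129 and 983. Scaling on the regions that the authors' group column calls Neg gave 1264 higher and 644 lower in atrium. Members whose calls changed under these scalings are named below. RNA replicates 2 to 5 gave 5 members called in atrium and 5 in ventricle, 1 of these lower than DNA. Both comparisons use the same DNA libraries.

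Of the 6 regions, the one at -53.1 kb upstream of Adrb1 was the strongest in ventricle. It had 567.8, 535.7, 576.2, 744.7 and 547.6 CPM in atrial replicates 1 to 5. It had 1391, 1244, 1351, 1368 and 1453 CPM in ventricular replicates, against 222.9, 193.0, 211.5, 188.9 and 188.4 CPM in DNA. Every RNA library lay above every DNA library, and every ventricular library lay above every atrial one. The log2 RNA over DNA was 1.46 ± 0.11 (SE) in atrium, 2.76-fold (adjusted p = 3.02e-08, edgeR), and 2.76 ± 0.08 in ventricle, 6.77-fold (adjusted p = 1.64e-14). RNA replicates 2 to 5 alone gave 1.47 and 2.67. With a mean DNA count of 431, the region belonged to those with at least 300, whose median log2 ratio was -0.66 in atrium and -0.69 in ventricle. Within that range it stood at the 95.2 percentile in atrium and the 98.5 percentile in ventricle. The log2 atrial over ventricular RNA was -1.18 ± 0.10, at the 2.1 percentile of all regions, and -1.15 in replicates 2 to 5.

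Next to it, the Adrb1 region at -42.1 kb leaned the other way between the chambers. It had 502.3, 480.4, 467.0, 629.7 and 420.6 CPM in atrium. It had 296.6, 301.8, 275.8, 274.9 and 357.7 CPM in ventricle, against 330.3, 344.6, 375.0, 303.1 and 344.7 CPM in DNA. Atrial libraries lay above all others, and ventricular libraries overlapped the DNA libraries. The log2 RNA over DNA was 0.46 ± 0.11 in atrium (adjusted p = 0.00192, edgeR) and 0.44 in replicates 2 to 5. In ventricle it was -0.17 ± 0.10 and did not pass (adjusted p = 0.107, edgeR). In replicates 2 to 5 alone it was -0.24 and was called lower (adjusted p = 0.0291). It was also called lower by DESeq2 (-0.27, adjusted p = 0.019), without a DNA minimum (-0.41), with edgeR's own count filter (-0.36), and without ventricular replicate 2 (-0.22) or 5 (-0.31). Scaling on the Neg regions gave -0.04, which did not pass, and library totals gave 0.21, called higher (adjusted p = 0.0412, edgeR). The log2 atrial over ventricular RNA was 0.75 ± 0.13, at the 88.7 percentile of all regions, and 0.75 in replicates 2 to 5.

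The ratio of these neighbours within a library does not depend on scaling between libraries. Counts at -53.1 kb over counts at -42.1 kb were 1.19 ± 0.07 in atrial libraries, 4.55 ± 0.43 in ventricular libraries and 0.59 ± 0.05 in DNA (SD, n = 5 each). The ranges were 1.12 to 1.30 in atrium, 4.06 to 4.98 in ventricle and 0.55 to 0.67 in DNA, with no overlap. The fragments lie 11.0 kb apart on the same side of the receptor gene.

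Upstream and nearer to the gene, the Adrb1 region at -18.3 kb was above DNA in both chambers with no clear lean. It had 83.2, 259.8, 132.0, 125.9 and 53.1 CPM in atrium. It had 120.0, 103.9, 133.2, 142.6 and 122.1 CPM in ventricle, against 61.1, 52.9, 36.8, 53.0 and 58.6 CPM in DNA. The atrial libraries were widely spread and overlapped both other groups, while each ventricular library lay above each DNA library. The log2 RNA over DNA was 1.21 ± 0.34 in atrium (adjusted p = 0.00598, edgeR) and 1.24 ± 0.16 in ventricle (adjusted p = 1.55e-06), and 1.32 and 1.17 in replicates 2 to 5. On the log2 scale, CPM ratios over DNA in replicate 1 were 0.66 in atrium and 1.19 in ventricle. In replicates 2 to 5 these CPM ratios were 1.44 and 1.26. By RNA over DNA among regions with a mean DNA count from 100 to under 300, it stood at the 75.6 (atrium) and 73.5 (ventricle) percentiles. The log2 atrial over ventricular RNA was 0.09 ± 0.33, and 0.21 in replicates 2 to 5, and changed sign without atrial replicate 2, to -0.31.

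Downstream of the gene, the Adrb1 region at +20.1 kb had values close to its DNA. It had 184.1, 160.5, 144.7, 188.5 and 144.7 CPM in atrium. It had 243.6, 234.6, 269.2, 296.7 and 186.9 CPM in ventricle, against 188.7, 173.5, 165.9, 183.8 and 176.8 CPM in DNA. Only ventricular replicate 5 lay within the range of the DNA libraries and of the atrial libraries. The log2 RNA over DNA was -0.22 ± 0.13 in atrium, which did not pass (adjusted p = 0.149, edgeR), and 0.47 ± 0.12 in ventricle, where the region was higher (adjusted p = 0.00166). In replicates 2 to 5 they were -0.27 and 0.39. The atrial value turned positive, to 0.26 with library totals and to 0.19 with scaling on the Neg regions. Without a DNA minimum the atrial value was -0.35 and called lower (adjusted p = 0.0138, edgeR), and the ventricular one, at 0.23, no longer passed (adjusted p = 0.0823). The log2 atrial over ventricular RNA was -0.57 ± 0.16, and -0.60 in replicates 2 to 5.

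Further out, the Adrb1 region at +24.8 kb was scarce, with 53 DNA counts in 5 libraries. It had 6.24, 20.8, 12.3, 7.12 and 16.5 CPM in atrium. It had 8.73, 12.1, 8.72, 39.5 and 12.6 CPM in ventricle, against 3.11, 5.24, 4.09, 7.83 and 4.65 CPM in DNA. Ventricular replicate 4 stood well above the other 4 ventricular libraries. The log2 RNA over DNA was 1.23 ± 0.42 in atrium (adjusted p = 0.0163, edgeR) and 1.74 ± 0.46 in ventricle (adjusted p = 0.00248), and without ventricular replicate 4 the ventricular value was 1.02 (adjusted p = 0.0143). In replicates 2 to 5 the values were 1.37 and 1.80. On the log2 scale, CPM ratios over DNA in replicate 1 were 0.32 in atrium and 0.81 in ventricle. In replicates 2 to 5 these CPM ratios were 1.51 and 1.87. Regions with a mean DNA count from 10 to under 100 had medians of 1.21 and 1.43, and this region stood at the 50.2 and 56.3 percentiles among them. The log2 atrial over ventricular RNA was -0.36 ± 0.52, -0.35 in replicates 2 to 5, and 0.27 without ventricular replicate 4.

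**Figure D2:**
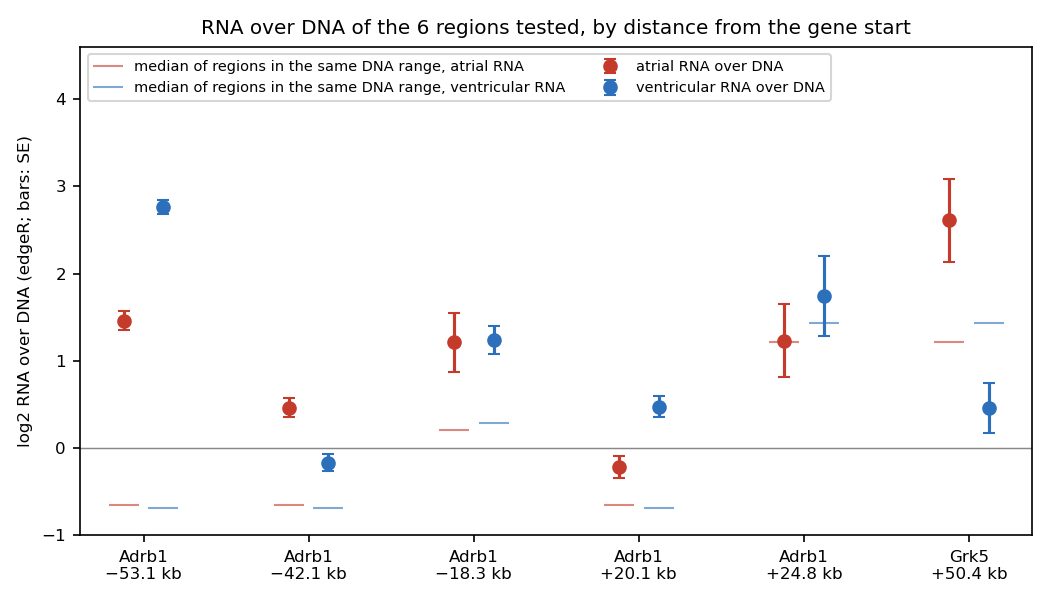
Log2 RNA over DNA of the 6 regions tested, in atrium (left point of each pair) and ventricle (right point), with SE bars, from left to right by distance from the start of Adrb1 and then Grk5. Short horizontal lines are the median of all regions in the same range of DNA counts. The Adrb1 region at -53.1 kb lies furthest above its lines, at 1.46 and 2.76, and the +24.8 kb region lies on or near them.

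The Adrb1 regions at -32.9 kb and +14.4 kb did not meet the DNA minimum and were not tested. The -32.9 kb region had 0 counts in all 10 RNA libraries and 3 counts over the 5 DNA libraries, so its activity was not measurable at this depth. The +14.4 kb region had only 9 counts over the 5 DNA libraries, with at most 1.95 CPM in any of them. Its RNA was 2.08 CPM in atrial replicate 1, from 2 counts, and 897.8, 908.2, 936.1 and 906.5 CPM in atrial replicates 2 to 5. In ventricle it was 2.91 CPM in replicate 1, from 4 counts, and 1104, 936.3, 1334 and 1343 CPM in replicates 2 to 5. Replicate 1 was thus like the DNA in both chambers, and each of the other 8 RNA libraries held at least 897.8 CPM. Among the 1219 regions below the DNA minimum it ranked 18 in atrium and 15 in ventricle by mean RNA of replicates 2 to 5. Pooled over replicates 2 to 5, RNA over DNA was 1086 in atrium (95% counting interval 571.6 to 2376) and 1405 in ventricle (739.8 to 3073). Whether the DNA libraries match the pool that replicates 2 to 5 received was not tested, for this region or for the tested regions above. The ratios at +14.4 kb are therefore not read as activity. Over replicates 2 to 5 the region had 912 ± 16.6 CPM in atrium and 1179 ± 196 CPM in ventricle (SD, n = 4 each), and all 4 atrial libraries lay below all 4 ventricular ones, the nearest being 936.1 CPM in atrium and 936.3 CPM in ventricle.

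Just outside the rule, a region 36.1 kb from Adrb1 lay nearer to Ccdc186, at 26.2 kb (chr19:56761061-56761460). It had 179.5 CPM in atrial RNA and 118.9 CPM in ventricular RNA against 383.0 CPM in DNA, log2 ratios of -1.20 and -1.69. A region 49.8 kb from Adrb1 (chr19:56774791-56775190), also nearest to Ccdc186, had log2 ratios of -0.33 in atrium and -0.39 in ventricle. A region inside Ccdc186, 93.0 kb from Adrb1 (chr19:56817940-56818339), was above DNA, with log2 ratios of 2.75 in atrium and 2.95 in ventricle. On the other side, a region 69.9 kb from Adrb1 lay nearer to Nhlrc2, at 48.7 kb (chr19:56652031-56652430). It was at 0 in all DNA libraries and in 6 of the 10 RNA libraries, and its highest RNA library held 11 counts. The outermost member was the -53.1 kb region described above.

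The Grk5 region at +50.4 kb, in the gene of the receptor kinase, was the region whose chamber difference was known when the loci were proposed. It had 169.5, 45.2, 150.4, 27.1 and 62.3 CPM in atrium. It had 10.9, 22.8, 21.1, 25.1 and 13.6 CPM in ventricle, against 11.7, 15.3, 9.35, 17.5 and 14.9 CPM in DNA. Each atrial library lay above all ventricular and DNA libraries, although the atrial libraries were widely spread, and ventricular libraries overlapped the DNA. The log2 RNA over DNA was 2.61 ± 0.48 in atrium and 0.46 ± 0.29 in ventricle, and 2.25 and 0.50 in replicates 2 to 5. On the log2 scale, CPM ratios over DNA in replicate 1 were 3.63 in atrium and -0.33 in ventricle. In replicates 2 to 5 these CPM ratios were 2.38 and 0.59. With library totals the ventricular value was 0.83, and the region was then called higher than DNA in ventricle, a call it did not have with TMM factors. The values are descriptive, since these RNA libraries also gave the chamber difference. With a mean DNA count of 29.6, the region stood at the 77.6 percentile in atrium and the 27.5 percentile in ventricle among regions with 10 to under 100.

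The log2 atrial over ventricular RNA at +50.4 kb was 2.27 ± 0.47, or 4.81-fold, which ranked 4 of 2601. The CPM ratio gave 3.96 on the log2 scale in replicate 1 and 1.79 in replicates 2 to 5, where the fit gave 1.82. Among the 389 tested regions tagged vMTF+p300, of which 44 were called higher in atrium and 114 higher in ventricle, it had the highest ratio. Both ranks restate the value by which the loci were chosen and are given as description only.

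The abutting Grk5 region at +50.8 kb had the opposite lean. It had 10.4, 17.2, 17.1, 7.12 and 6.72 CPM in atrium. It had 13.8, 27.9, 23.8, 22.4 and 16.7 CPM in ventricle, and 3 counts in 1 of the 5 DNA libraries. The chambers overlapped, and pooled counts gave 104 in atrium and 304 in ventricle, a ratio of 0.552 (95% counting interval 0.437 to 0.691). That interval covers only counting error. In the fit without a DNA minimum the log2 atrial over ventricular RNA was -0.75 ± 0.38, and the difference was not called. This region held RNA in replicate 1 of both chambers, unlike the Adrb1 region at +14.4 kb. Its 3 DNA counts allow no firm ratio: pooled RNA over DNA was 42.8 in atrium (14.3 to 210.9) and 77.6 in ventricle (26.3 to 378.3). Over RNA replicates 2 to 5 the pooled ratios were 0.539 for atrium over ventricle, 43.5 for atrium over DNA and 80.7 for ventricle over DNA.

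Counts at +50.4 kb over counts at +50.8 kb were 16.3, 2.62, 8.79, 3.8 and 9.27 in atrial libraries. They were 0.79, 0.82, 0.89, 1.12 and 0.82 in ventricular libraries. The lowest atrial ratio, from 76 and 29 counts, was above the highest ventricular ratio, from 91 and 81 counts. The share of the +50.4 kb region in the pair was 72.4% in that atrial library (exact binomial 95% interval 62.8 to 80.7) and 52.9% in that ventricular library (45.2 to 60.5). The log2 chamber difference differed by 3.10 between the fragments. Over 172 abutting pairs with a mean of at least 10 RNA counts in both fragments, the median absolute difference was 0.59 and 0 pairs had a larger one. This is a description of a pair chosen for 1 of its values.

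**Figure D3:**
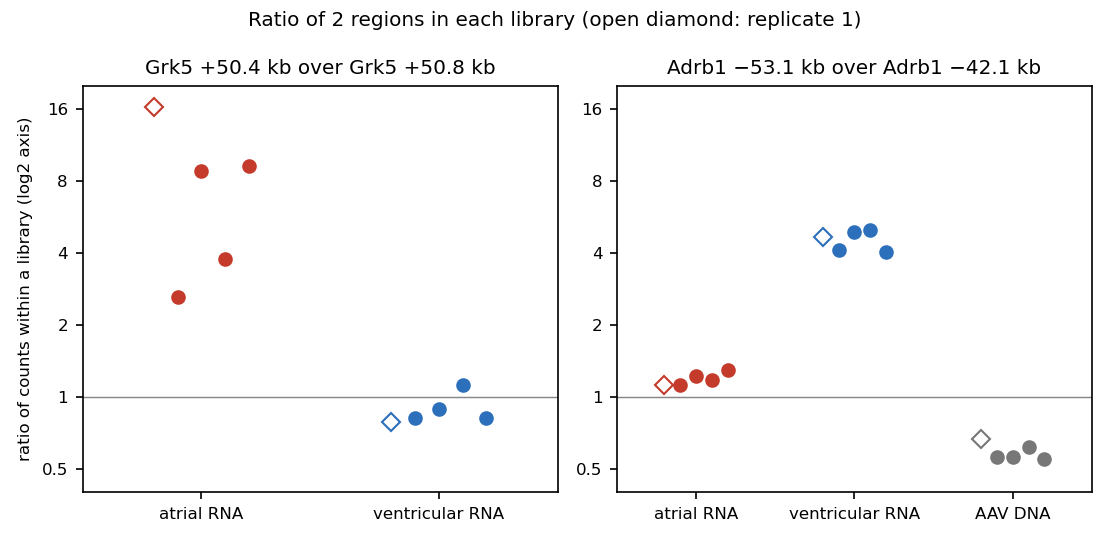
Counts of 1 region over counts of its neighbour in each library, on a log2 axis, for the abutting Grk5 fragments (left) and for the Adrb1 regions at -53.1 and -42.1 kb (right). Points are libraries and open diamonds are replicate 1. Atrial ratios at Grk5 run from 2.62 to 16.3 and ventricular ones from 0.79 to 1.12, and at Adrb1 atrial ratios run from 1.12 to 1.30, ventricular from 4.06 to 4.98 and DNA from 0.55 to 0.67.

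Between the chambers, 2 of the 6 tested regions were called higher in atrium (Adrb1 -42.1 kb and Grk5 +50.4 kb) and 2 higher in ventricle (Adrb1 -53.1 kb and +20.1 kb), where 15.8% and 15.1% of all regions were. In 2 regions all atrial libraries lay above all ventricular ones and in 1 all lay below, where 10% and 13% of all regions did. The median log2 ratio of the 6 was -0.14, against 0.03 over all regions. Nothing is read from these counts, because the loci were proposed with this comparison in view. Scaling on the Neg regions shifted the overall median by 0.15. Over the whole table it gave 563 calls higher in atrium and 237 higher in ventricle, against 412 and 392 with TMM factors, and the +20.1 kb region lost its call.

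**Figure D4:**
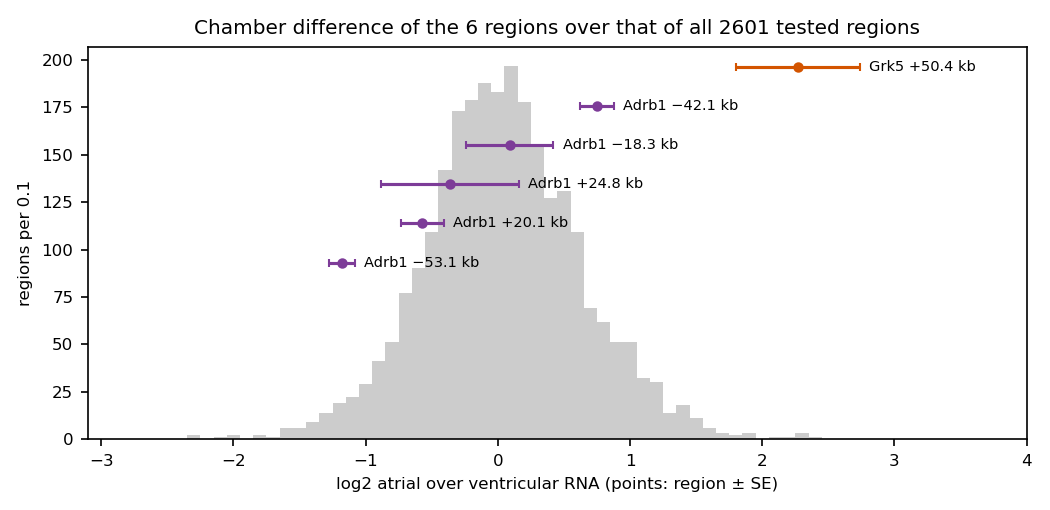
Log2 atrial over ventricular RNA of the 6 regions (points, with SE bars, at arbitrary heights) over the histogram of all 2601 tested regions in bins of 0.1. The Grk5 region at +50.4 kb lies at 2.27 in the upper tail and the Adrb1 region at -53.1 kb at -1.18 in the lower tail, with the other 4 between.

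The regions whose log2 CPM over the 10 RNA libraries was most like that of the Adrb1 -53.1 kb region lay inside Chrna4 (chr2:181042216-181042615, Pearson r = 0.991, and 0.990 over the 8 libraries of replicates 2 to 5), inside Ncoa2 (chr1:13329635-13330034, 0.987 and 0.983) and 39.2 kb from Sp3 (chr2:73019480-73019879, 0.985 and 0.992). For the Grk5 +50.4 kb region they lay inside Adcy1 (chr11:7129549-7129948, 0.938 and 0.932), inside Gnao1 (chr8:93868872-93869271, 0.921 and 0.856) and 25.9 kb from Stx11 (chr10:12912137-12912536, 0.912 and 0.946). The points share libraries, depth and scaling, and mainly separate the chambers. The Chrna4 region carries the tag ESC-Neg, by its name a negative control. Log2 atrial over ventricular RNA was -1.18 inside Chrna4, -1.11 inside Ncoa2 and -0.92 near Sp3, against -1.18 at Adrb1 -53.1 kb. It was 0.66 inside Adcy1, 1.10 inside Gnao1 and 0.90 near Stx11, against 2.27 at Grk5 +50.4 kb.

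Other genes of the pathway were followed with a list of 68 gene symbols for adrenergic receptors, receptor kinases, arrestins, G protein subunits, adenylyl cyclases, protein kinase A subunits and anchors, phosphodiesterases and cAMP effectors. The list was written with earlier results of these data known. By the same rule 44 regions belonged to its genes, and 26, near 20 genes, were tested. Against DNA, 8 were higher and 11 lower in atrium, and 9 higher and 12 lower in ventricle. For atrial RNA the shares over the whole table were 38.4% higher and 36.3% lower, and for ventricular RNA they were 43.4% and 37.8%. The counts were the same in RNA replicates 2 to 5, but library totals gave 10 higher and 6 lower in each chamber, and scaling on the Neg regions gave 10 and 6 in atrium and 10 and 10 in ventricle. The highest lay inside Akap9, a kinase-anchoring protein (chr5:3943134-3943533), with a log2 ratio of 4.50 ± 0.69 in atrium (adjusted p = 9.39e-05, edgeR) and 4.82 ± 0.75 in ventricle (adjusted p = 0.000278). The Adcy1 region named above, in an adenylyl cyclase gene, had 3.33 ± 0.23 and 2.79 ± 0.18, and a region inside Pde4d, a cAMP phosphodiesterase (chr13:109599789-109600188), 2.85 ± 0.39 and 2.61 ± 0.23. These regions were scarce in DNA, with means of 7.05 CPM for Akap9, 10.35 for Adcy1 and 7.51 for Pde4d. Regions with a mean DNA count from 10 to under 100 had median log2 ratios of 1.21 in atrium and 1.43 in ventricle. Akap9 RNA was also widely spread, at 171.8 ± 101.2 CPM in atrium (SD). The fourth in atrium lay 24.8 kb from Akap13, another kinase-anchoring protein (chr7:75430526-75430925), at 2.41 ± 0.21. Among those lower than DNA, a region inside Rapgef4, a cAMP-activated exchange factor (chr2:72070049-72070448), stood at -2.39 ± 0.08 in ventricle.

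Between the chambers, 7 of the 26 were called higher in atrium and 0 higher in ventricle, with a median log2 ratio of 0.10, and 19 did not pass. Of all regions 15.8% were called higher in atrium and 15.1% higher in ventricle, with a median of 0.03. RNA replicates 2 to 5 gave 5 and 0 with a median of 0.16, and scaling on the Neg regions gave 7 and 0 with a median of 0.24. The 4 with the largest ratios lay 24.8 kb from Akap13 (a log2 ratio of 1.04 ± 0.19), inside Rapgef4 (0.87 ± 0.13), inside Gng2, a G protein gamma subunit (chr14:19929807-19930206, 0.87 ± 0.16), and 2.3 kb from Grk3, another receptor kinase (chr5:112908012-112908411, 0.82 ± 0.17). Since the list was written with earlier results known, these ratios are given as descriptions, without p-values. The Grk3 region had 200.3 ± 23.6 CPM in atrium and 114.8 ± 22 CPM in ventricle (SD, n = 5 each). These shares were not tested against the rest of the table.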

How the data were processed

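Each of the 15 deposited columns holds raw counts per 400 bp region, without normalization by the authors. Libraries were primed with a UMI primer at the cloning sites, per the labels' protocols. The submitters' processing notes name the build mm10 and the tools Bowtie2 2.3.4.3 and cutadapt 2.5. The sources used here do not give whether UMIs were collapsed before counting. The deposited table of the whole series differed from the library files in 0 values.

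Each comparison was fitted on its 10 libraries with edgeR 4.0.16 in R 4.3.3 (robust quasi-likelihood, TMM), over 2601 regions (mean DNA count 10 or more). Library sizes were summed over those regions, and p-values were adjusted over all of them by Benjamini-Hochberg. Standard errors came from the log2 ratio and the F statistic. The fits were tested on simulated data. DESeq2 1.42.0, other scalings and filters, a replicate block and leaving out libraries were alternatives, and those for the pathway list were chosen after seeing the data. Intervals of pooled counts are exact conditional binomial. Within groups, no pair of libraries agreed within sampling noise: chi-square per degree of freedom was at least 1.79. Deviations from the group means were correlated between atrial and ventricular libraries of the same number, at 0.819 for replicate 1 and 0.225 to 0.241 for the others. Libraries of different numbers were not compared, and replicate 1 stood apart in both chambers. Whether these numbers pair samples was therefore not tested. Between RNA and DNA libraries of the same number the correlations were -0.032 to 0.061.

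All members were described. Per-library values were given for all members, regions most like a member for the largest chamber ratio in each locus, and pathway regions by the 4 largest called ratios. The members and lists were chosen with earlier results of these data known. Region sequence was printed only where RefSeq windows hold it.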

Additional observations from a re-analysis of the deposited data

Results flagged for a closer look

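In 27 sets of 5 libraries (9 regions in 3 groups), 4 had a library far from the other 4, where chance gives about 1 in 20 sets. That rate does not hold for sets at or near 0 counts, such as the RNA at Adrb1 -32.9 kb and the DNA at Grk5 +50.8 kb. The flag at Adrb1 +14.4 kb restates the difference of replicate 1 given above. The flagged libraries were atrial replicate 4 of the Adrb1 region at -53.1 kb (744.7 CPM), atrial replicate 1 at +14.4 kb (2.08 CPM), ventricular replicate 4 at +24.8 kb (39.5 CPM) and DNA replicate 5 of the Grk5 region at +50.8 kb (1.40 CPM, from 3 counts).

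The fit between the chambers called a difference in 4 regions, with log2 atrial over ventricular RNA of -1.18 at Adrb1 -53.1 kb, 0.75 at Adrb1 -42.1 kb, -0.57 at Adrb1 +20.1 kb and 2.27 at Grk5 +50.4 kb. The loci were proposed with this comparison in view.

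Signal also appeared in regions left out of the tests. The Adrb1 region at +14.4 kb averaged 730.1 CPM in atrium and 944.1 CPM in ventricle, all but a few counts from replicates 2 to 5, against 0.807 CPM in DNA. The Grk5 region at +50.8 kb averaged 11.7 CPM in atrium and 20.9 CPM in ventricle, against 0.279 CPM in DNA.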

How the results depend on the processing

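Over 22 alternative settings the log2 ratios of the 6 tested regions were recomputed 306 times, and 288 kept direction and side of the threshold, 10 came to pass it, 2 no longer passed and 6 changed sign. The sign changes were at Adrb1 +20.1 kb in atrium over DNA (0.26 with library totals and 0.19 with scaling on Neg regions), at Adrb1 -42.1 kb in ventricle over DNA (0.21 with library totals), and between chambers at Adrb1 -18.3 kb (-0.09 with the replicate block and -0.31 without atrial replicate 2) and Adrb1 +24.8 kb (0.27 without ventricular replicate 4). Leaving out 1 library gave -0.31 to 0.29 at Adrb1 -18.3 kb and -0.62 to 0.27 at Adrb1 +24.8 kb between chambers. Library totals moved the median of all regions by 0.48 in atrium over DNA and 0.37 in ventricle over DNA. No call was lost or gained under the replicate block, with 5, 4 and 4 regions called in atrium over DNA, ventricle over DNA and atrium over ventricle, as without it. Without a DNA minimum 8 regions were called in atrium over DNA against 5, the additions being Adrb1 +14.4 kb and Grk5 +50.8 kb, left out before, and Adrb1 +20.1 kb, and over all regions 1930 were called higher in atrium against 999 and 2051 in ventricle against 1129. Leaving out 1 library gave 5 in every case in atrium over DNA, 4 to 5 in ventricle over DNA and 4 between chambers. Stability of the calls between chambers is no support for them, because the loci were proposed with that comparison in these libraries in view. The same holds for the atrial call over DNA at Grk5 +50.4 kb, which uses the same atrial libraries. The calls lost were Adrb1 +20.1 kb in ventricle over DNA without a minimum (0.23) and between chambers with scaling on Neg regions (-0.42). Depth limits the ratios over DNA most at Adrb1 +24.8 kb and Grk5 +50.4 kb, with mean DNA counts of 10.6 and 29.6.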
